A study of Homo sapiens with 2 samples.

Results

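ATP-binding cassette (ABC) transporters were described across 5 human lung adenocarcinoma cell lines measured together in single barcodes. The members are the gene rows whose name is ABC, a letter from A to G and digits with nothing more, which gave 45 of the 36601 genes in the RNA library. The peaks that lie within 2000 bases of the span of transcription starts listed for these genes, 101 of 187920 in the ATAC library, were taken as the peaks at the members. The rule itself uses names and positions and no RNA level or peak count, but the members were chosen with earlier results of these data known.

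The study prepared a benchmark for single-cell ATAC-seq methods from the lines H2228, H1975, A549, H838 and HCC827. Each line was 1 untreated culture grown on its own in RPMI medium with fetal calf serum and antibiotics, dissociated, frozen and mixed in equal parts with the others. The mix went through 1 droplet capture in which RNA and accessible DNA of the same nucleus or cell carry the same barcode, and the 80% fraction of that capture is analysed here. There is therefore 1 RNA library, 1 ATAC library and no replicate of any line: no test between lines was possible, and the intervals below are 95% intervals that cover counting error only.

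The barcodes carry no line label. They were split by their ATAC profiles, with the peaks at ABC genes left out, and each of the 5 clusters was tied to a line by marker genes. The A549-like line held 759 barcodes and all 7 of its naming markers were highest there, among them the aldehyde dehydrogenase gene ALDH1A1 and the fibrinogen genes. The HCC827-like line held 449 barcodes, and 5 of its 6 naming markers (EGFR and its neighbours, CEACAM5 and CEACAM6) were highest there. The other lines have no line name here and are called by a leading gene: the S100A9 line (511 barcodes), the SLC30A8 line (598 barcodes) and the DHRS2 line (424 barcodes). Which of H2228, H1975 and H838 each of them is was not determined.

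Of 2741 barcodes kept, 2338 could also be named from marker gene UMIs (unique molecular identifiers, each standing for 1 captured RNA molecule), and 2256 of these had the same name by both routes. The names matched for 697 of 759 A549-like, 521 of 598 SLC30A8 and 414 of 511 S100A9 barcodes. They matched for 331 of 449 HCC827-like and 293 of 424 DHRS2 barcodes. Clusters made from RNA placed 176 of the 424 DHRS2 barcodes with the S100A9 line, so these lines are less cleanly separated. Summed UMIs were between 4718092 and 17395753 per line. The median share of mitochondrial UMIs was 0.431% and 0.439% in the A549-like and SLC30A8 lines, against 8.95%, 13.7% and 12.2% in the S100A9, HCC827-like and DHRS2 lines, so the RNA calls were also computed within barcodes below and above 5%. Markers of a line were also found in the others: the summed level of a line's 5 or 4 marker genes in the next highest line was 3.07% to 11.7% of the level in its own line for 4 of the lines, and 22.0% for the S100A9 markers in the DHRS2 line. Marker sums of immune, endothelial and fibroblast cells ranged over lines from 5.30 to 15.9, from 3.60 to 87.2 and from 6.57 to 144 CPM (a line's counts scaled to a common total). The endothelial and fibroblast sums were highest in the S100A9 and DHRS2 lines. There the endothelial sum was mostly PECAM1 (86.0 and 45.3 CPM), while KDR, ERG and EMCN were at most 1.21 CPM. The fibroblast sum was mostly COL1A1 (110 and 102 CPM) and COL1A2 (9.64 and 41.4 CPM), while DCN and LUM were at most 0.287 CPM. All 3 haemoglobin genes were at 0 UMIs. The part of these differences in the results was not tested.

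ABC transporters use the energy of ATP hydrolysis to move substrates across membranes. In epithelial and tumour cells the B, C and G subfamilies are best known for pumping drugs and conjugated metabolites out of the cell, A members move lipids, D members carry fatty acids into peroxisomes, several B members sit in mitochondria, and the E and F members are soluble proteins that act on ribosomes. In the lung, ABCA3 loads surfactant lipids into the lamellar bodies of alveolar type II cells.

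Members that were higher in 1 line had promoters of unlike base composition. Promoters of 5 of these members are shown first because promoter peaks are split by that composition further below. The sequences are RefSeq promoters (GRCh38.p14) of 300 bases, from 250 before to 50 after an annotated start, printed 5′ to 3′ on the gene's strand, with each CpG in capitals. ABCC2 (chr10:99782390-99782689, plus strand, 1 CpG) and ABCA13 (chr7:48171208-48171507, plus strand, 3 CpG) carry few. ABCB6 (chr2:219218909-219219208, minus strand, 23 CpG), ABCD3 (chr1:94418139-94418438, plus strand, 42 CpG) and ABCC4 (chr13:95301402-95301701, minus strand, 47 CpG) carry many.
ABCC2: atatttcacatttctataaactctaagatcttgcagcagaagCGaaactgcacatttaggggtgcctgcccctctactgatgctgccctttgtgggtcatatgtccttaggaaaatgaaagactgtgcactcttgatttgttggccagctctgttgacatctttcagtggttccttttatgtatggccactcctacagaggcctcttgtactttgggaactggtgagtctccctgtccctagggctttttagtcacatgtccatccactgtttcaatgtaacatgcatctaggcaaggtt
ABCA13: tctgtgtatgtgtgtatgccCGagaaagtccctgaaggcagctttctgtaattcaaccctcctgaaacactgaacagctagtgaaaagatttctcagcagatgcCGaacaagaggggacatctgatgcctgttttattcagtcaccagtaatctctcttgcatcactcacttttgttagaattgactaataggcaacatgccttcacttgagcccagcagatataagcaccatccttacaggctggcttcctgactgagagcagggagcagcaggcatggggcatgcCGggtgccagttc
ABCB6: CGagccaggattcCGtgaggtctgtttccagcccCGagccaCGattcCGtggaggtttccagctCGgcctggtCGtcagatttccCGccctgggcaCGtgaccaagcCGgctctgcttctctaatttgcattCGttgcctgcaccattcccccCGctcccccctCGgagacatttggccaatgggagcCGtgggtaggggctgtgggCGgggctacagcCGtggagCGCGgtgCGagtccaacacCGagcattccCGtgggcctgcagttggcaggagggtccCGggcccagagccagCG
ABCD3: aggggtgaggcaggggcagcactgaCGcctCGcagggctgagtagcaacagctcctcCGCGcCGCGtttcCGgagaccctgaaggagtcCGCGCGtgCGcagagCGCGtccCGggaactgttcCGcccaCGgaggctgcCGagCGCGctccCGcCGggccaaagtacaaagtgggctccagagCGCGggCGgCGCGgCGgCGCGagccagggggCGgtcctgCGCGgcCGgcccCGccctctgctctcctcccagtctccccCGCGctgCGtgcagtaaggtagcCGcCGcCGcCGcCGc
ABCC4: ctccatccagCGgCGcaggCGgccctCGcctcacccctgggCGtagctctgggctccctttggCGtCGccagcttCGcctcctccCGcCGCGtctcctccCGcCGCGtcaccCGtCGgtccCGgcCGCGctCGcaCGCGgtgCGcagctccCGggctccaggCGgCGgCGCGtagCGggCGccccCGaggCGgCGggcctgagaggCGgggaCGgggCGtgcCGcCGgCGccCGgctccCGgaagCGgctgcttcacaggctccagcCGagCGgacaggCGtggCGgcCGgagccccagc

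Across the family, 36 of the 45 members had at least 20 UMIs in the kept barcodes and are called measured, beside 20960 genes in all. A member is called higher or lower in a line when log2 of (CPM + 1) over (mean CPM of the other 4 lines + 1) reached 2-fold. By that rule 18 of the 36 measured members were higher in some line. For all measured genes that share was not computed over the lines together and is given line by line below. Of the members, 15 passed 2-fold in no line, higher or lower. Those 15 are 41.7% of the measured members, against 48.4% of all measured genes. The highest line stood at least 2-fold above the second in 9 of the 36 members, and in 17.4% of all measured genes. The median spread between the highest and the lowest line was 1.76 on the log2 scale for the members and 1.39 for all genes.

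**Figure D1:**
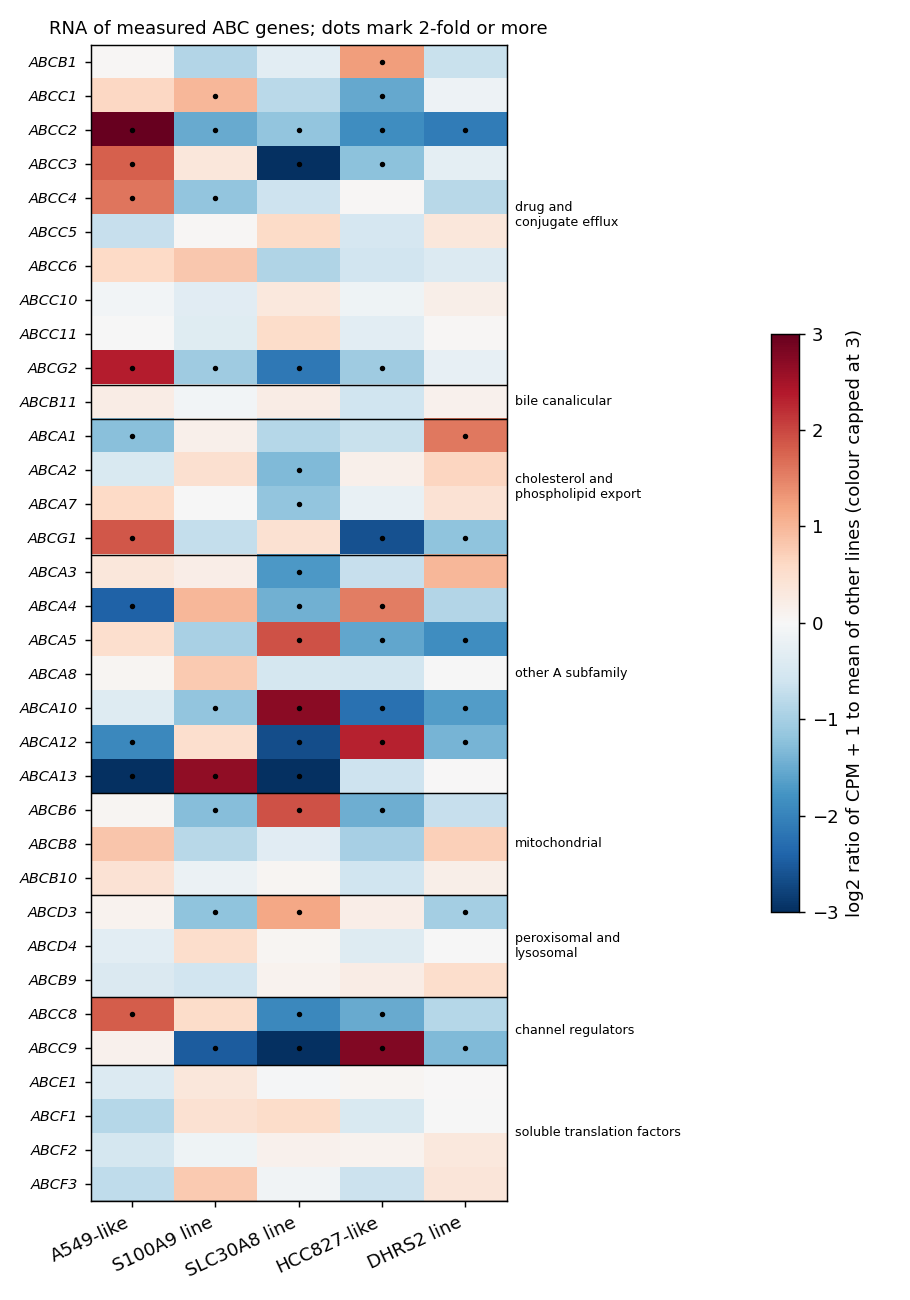
Log2 ratio of CPM + 1 in each line (columns) to the mean of the other lines for 34 of the 36 measured ABC genes (rows, grouped by role); red is higher, blue lower, and dots mark 2-fold or more. The A549-like column holds 4 of its 6 higher calls among the efflux pumps, and the rows of the soluble translation factors hold no dot.

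In the A549-like line 6 members were higher: ABCC2, ABCC3, ABCC4, ABCG2, ABCG1 and ABCC8, where 11.8% of all measured genes were higher. The S100A9 line had 2 higher members, ABCA13 and ABCC1, against a background of 7.29%. The SLC30A8 line had 4 (ABCA10, ABCA5, ABCB6 and ABCD3; background 12.0%), the HCC827-like line 4 (ABCC9, ABCA12, ABCA4 and ABCB1; background 6.37%) and the DHRS2 line 2 (ABCA1 among them; background 3.49%). Each of the 18 members was thus higher in exactly 1 line. ABCA4 fell just short in the S100A9 line as well, with a log2 ratio of 0.997. Lower calls numbered 4 in the A549-like line (background 15.8%), 7 in the S100A9 line (13.6%), 11 in the SLC30A8 line (18.2%), 10 in the HCC827-like line (15.8%) and 7 in the DHRS2 line (7.74%). As shares of 36, the lower calls in the S100A9 (19.4%), SLC30A8 (30.6%), HCC827-like (27.8%) and DHRS2 (19.4%) lines lie above the background and those in the A549-like line (11.1%) below it. These shares rest on 4 to 11 members per line, and their differences from the background were not tested. The median log2 ratio of the members was 0.06, -0.10, -0.33, -0.56 and -0.01 in the A549-like, S100A9, SLC30A8, HCC827-like and DHRS2 lines, against -0.01, -0.20, -0.05, -0.28 and -0.14 for all measured genes. Counted against the median of the other lines in place of their mean, higher calls were 28 and lower calls 26 (51.9% higher), against 18 and 39 (31.6% higher) with the mean, so the split between higher and lower depends on that choice.

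**Figure D2:**
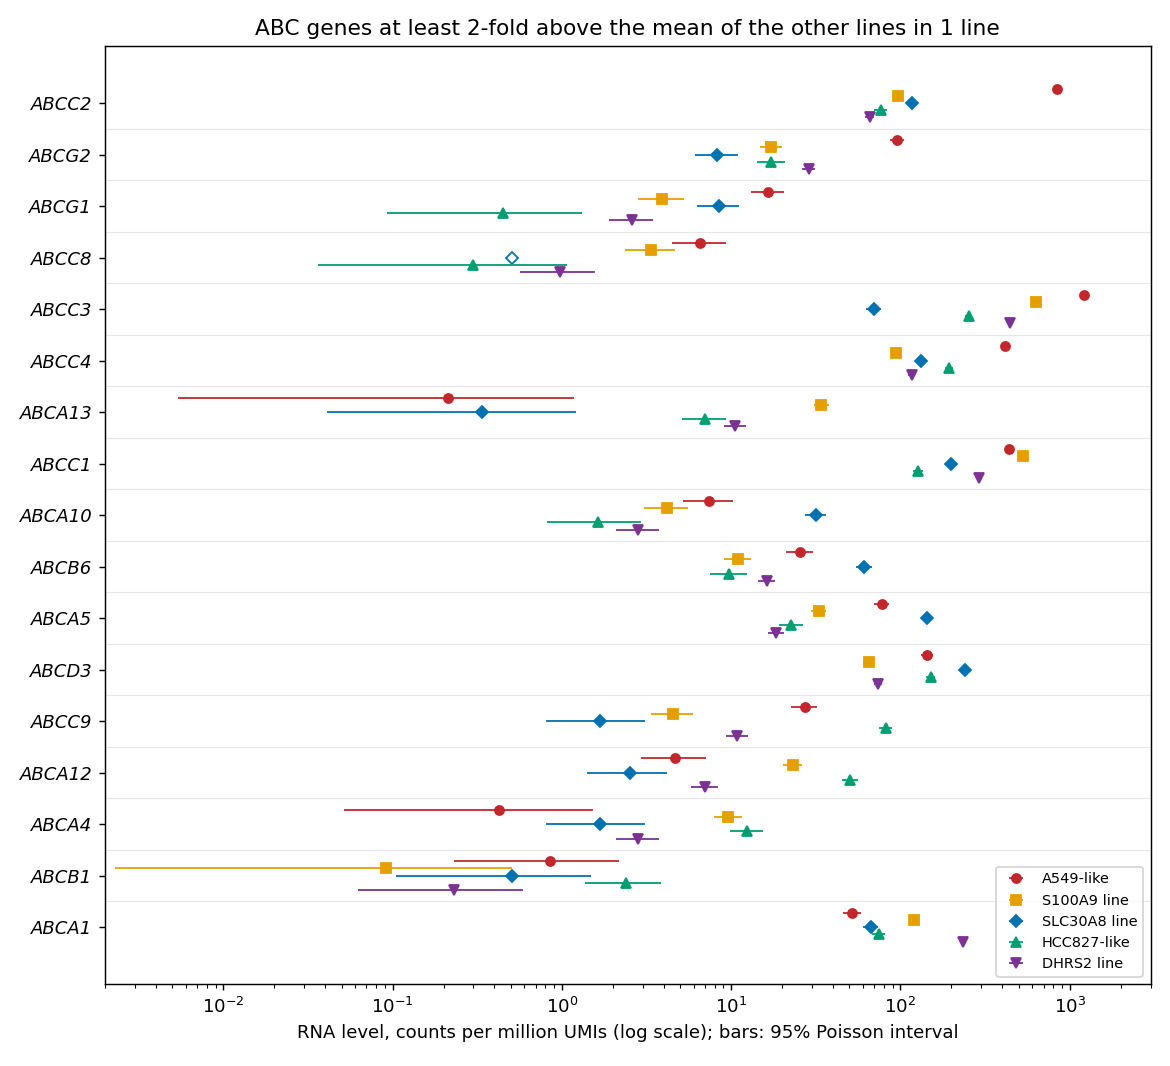
RNA level of 17 of the 18 ABC genes that were higher in 1 line, in CPM on a log axis, with 95% Poisson intervals; genes run down the page by the line in which they were higher, and marker shape and colour give the line. ABCC2 in the A549-like line lies well to the right of the other 4 lines; the open diamond is ABCC8 in the SLC30A8 line, with 0 UMIs, drawn at the level that 3 UMIs would give.

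Among the pumps of drugs and conjugates, the A549-like line had 4 of 10 measured members higher and none lower, where 11.8% of all genes were higher and 15.8% lower, and the median log2 ratio was 0.60 against -0.01 for all genes. ABCC2 (ENSG00000023839, MRP2, which exports glucuronide and glutathione conjugates across the apical membrane) reached 844 CPM (818 to 871) in the A549-like line, against 96.5 in the S100A9, 118 in the SLC30A8, 76.7 in the HCC827-like and 65.8 in the DHRS2 line. The A549-like level was 7.17-fold that of the next line (6.61 to 7.78), the log2 ratio to the mean of the others was 3.23, and no interval of another line came near it. After each barcode was thinned to 3000 UMIs, 87.4% of 612 A549-like barcodes held an ABCC2 UMI (84.5% to 89.9%), against 18.4% in the S100A9, 27.1% in the SLC30A8, 16.0% in the HCC827-like and 8.74% in the DHRS2 line. Thinning left out 147 shallower barcodes of the A549-like line and 5, 25, 18 and 12 of the S100A9, SLC30A8, HCC827-like and DHRS2 lines. Without it the shares were 94.1% in the A549-like line, against 60.5%, 52.5%, 38.1% and 41.0% in the same order, at a median of 4474 UMIs per barcode against 13483, 7078, 11861 and 22974. The markers of the A549-like line, for comparison, appeared in another line at up to 3.07% of their own level.

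ABCC3 (MRP3, which exports glucuronides across the basolateral membrane) had 1222 CPM in the A549-like line, against 634 in the S100A9, 444 in the DHRS2, 253 in the HCC827-like and 69.5 in the SLC30A8 line. It was graded rather than confined to a line: all 5 intervals are apart, the first is 1.93-fold the second (1.86 to 1.99), and the highest is 17.6-fold the lowest. ABCC4 (ENSG00000125257, MRP4, an exporter of cyclic nucleotides and prostaglandins) had 414 CPM in the A549-like line, against 195 in the HCC827-like, 133 in the SLC30A8, 116 in the DHRS2 and 93.7 in the S100A9 line, 2.13-fold above the next line (1.98 to 2.29). ABCG2 (ENSG00000118777, the breast cancer resistance protein, which exports urate and many drugs) had 95.4 CPM in the A549-like line, against 28.8 in the DHRS2, 17.3 in both the S100A9 and HCC827-like lines and 8.27 in the SLC30A8 line. The A549-like level of ABCG2 was 3.31-fold the next (2.91 to 3.77), while the intervals of the S100A9 and HCC827-like lines overlap.

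ABCC1 (MRP1, which exports glutathione conjugates and leukotriene C4) was the sole pump higher in the S100A9 line, with 530 CPM, against 441 in the A549-like, 293 in the DHRS2, 198 in the SLC30A8 and 126 in the HCC827-like line. It lay at the threshold, with a log2 ratio of 1.00, 1.20-fold above the A549-like line (1.14 to 1.27). With RNA clusters in place of ATAC clusters its log2 ratio was 0.92, and with doublets kept 0.95. ABCB1 (P-glycoprotein, the classical multidrug pump) was sparse everywhere: 2.39 CPM (1.36 to 3.88) in the HCC827-like line, against 0.848 in the A549-like, 0.506 in the SLC30A8, 0.23 in the DHRS2 and 0.0909 in the S100A9 line. The HCC827-like and A549-like intervals overlap, and with a pseudocount of 5 CPM the log2 ratio of 1.26 became 0.45.

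The remaining pumps differed less. ABCC5 (MRP5, an exporter of cyclic nucleotides) ranged from 46.6 CPM in the A549-like to 95 in the SLC30A8 line. ABCC10 (MRP7) ranged from 13.0 in the S100A9 to 19.2 in the SLC30A8 line. ABCC11 (MRP8, known for the earwax trait) ranged from 1.55 in the S100A9 to 3.21 in the SLC30A8 line. For ABCC10 and ABCC11 the intervals of lines next to each other in rank overlap. The S100A9 (11.0 to 15.3) and SLC30A8 (15.9 to 23.1) intervals of ABCC10 lie apart. ABCC6, the gene of pseudoxanthoma elasticum, ranged from 7.43 in the SLC30A8 to 20.7 in the S100A9 line, and its counts are uncertain because near-identical pseudogene copies can take or give reads. ABCC12 had 10 UMIs in all. Lower calls among the pumps numbered 3 in the S100A9, 3 in the SLC30A8, 4 in the HCC827-like and 1 in the DHRS2 line, of 10 measured, where 13.6%, 18.2%, 15.8% and 7.74% of all measured genes were lower. ABCC2 was lower in all 4 lines other than A549-like, because the mean it was set against there holds the A549-like value. Against the median of the other lines, the log2 ratio of ABCC2 in the SLC30A8 line was 0.44 in place of -1.19.

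The cholesterol and phospholipid exporters had 4 of 5 members measured. ABCA1 (which loads cholesterol and phospholipid onto apolipoprotein A-I) reached 236 CPM (229 to 243) in the DHRS2 line, against 120 in the S100A9, 74.8 in the HCC827-like, 66.7 in the SLC30A8 and 51.9 in the A549-like line. The DHRS2 level was 1.96-fold the next (1.84 to 2.09), and the HCC827-like and SLC30A8 intervals overlap. The share of thinned barcodes with an ABCA1 UMI was 54.1% in the DHRS2 line, against 27.1% in the S100A9, 17.1% in the SLC30A8, 15.3% in the HCC827-like and 13.1% in the A549-like line. ABCG1 (which passes sterols to high-density lipoprotein) had 16.5 CPM in the A549-like line, against 8.44 in the SLC30A8, 3.91 in the S100A9, 2.59 in the DHRS2 and 0.448 in the HCC827-like line. ABCA2 and ABCA7, known from lipid handling in nervous tissue and in phagocytes, were lower in the SLC30A8 line, with 3.88 and 6.75 CPM there, against 7.21 to 14.0 and 12.7 to 20.3 CPM in the other lines. ABCG4 had 2 UMIs in all.

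The other A members had 7 of 9 measured. Of those, 1 was higher in the S100A9, 2 in the SLC30A8 and 2 in the HCC827-like line. In these lines 7.29%, 12.0% and 6.37% of all measured genes were higher. ABCA13 (ENSG00000179869, among the longest proteins of the family) had 34.1 CPM (30.7 to 37.7) in the S100A9 line, against 10.6 in the DHRS2, 7.01 in the HCC827-like, 0.338 in the SLC30A8 and 0.212 in the A549-like line. The S100A9 level was 3.22-fold the next (2.69 to 3.87), and the A549-like and SLC30A8 lines held 1 and 2 UMIs. Thinned barcodes held an ABCA13 UMI in 11.3% of the S100A9, 2.91% of the DHRS2 and 1.39% of the HCC827-like barcodes, and in 0 of 612 A549-like and 0 of 573 SLC30A8 barcodes, where a count of 0 allows up to 0.601% and 0.642%. Beside these, the S100A9 markers as a set stood in the DHRS2 line at 22.0% of their own level. In barcodes that both routes named alike, ABCA13 was 38.5 CPM in the S100A9 line, against 7.73 in the HCC827-like and 6.47 in the DHRS2 line.

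ABCA12 (ENSG00000144452, which loads glucosylceramides into the lamellar granules of keratinocytes) had 50.1 CPM in the HCC827-like line, against 23.1 in the S100A9, 7.01 in the DHRS2, 4.66 in the A549-like and 2.53 in the SLC30A8 line. It was 2.17-fold above the next line (1.84 to 2.57), while among the 3 lowest lines the intervals of neighbours in rank overlap. The DHRS2 (5.82 to 8.37) and SLC30A8 (1.42 to 4.18) intervals lie apart. ABCA4, the retinal flippase of photoreceptors, had 12.4 CPM in the HCC827-like and 9.64 in the S100A9 line with overlapping intervals, against 2.82 in the DHRS2, 1.69 in the SLC30A8 and 0.424 in the A549-like line. ABCA10 (ENSG00000154263) had 31.6 CPM (27.2 to 36.4) in the SLC30A8 line, against 7.42 in the A549-like, 4.18 in the S100A9, 2.82 in the DHRS2 and 1.64 in the HCC827-like line, 4.25-fold above the next (2.95 to 6.29). Its chromosome 17 neighbour ABCA5, a protein of lysosomes and late endosomes, had 144 CPM in the SLC30A8 line, against 77.6 in the A549-like, 32.9 in the S100A9, 22.5 in the HCC827-like and 18.4 in the DHRS2 line. The other members of that cluster were scarce in every line: ABCA8 was at most 1.36 CPM, and ABCA6 and ABCA9 had 11 and 3 UMIs in all.

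ABCA3, the surfactant lipid transporter, reached the 2-fold rule for higher in no line. In the DHRS2 line it lay just short, with a log2 ratio of 0.993. Its interval there (36.9 to 42.9) is apart from that of the next line, A549-like (24.0 to 33.9). It had 39.8 CPM in the DHRS2 line, 28.6 in the A549-like, 26.4 in the S100A9, 15.4 in the HCC827-like and 7.59 in the SLC30A8 line, where it was lower by 1.73 on the log2 scale. ABCA12, ABCA13 and ABCA4 were lower in the SLC30A8 line as well, so 4 of 7 measured A members of this group were lower there while ABCA5 and ABCA10 were higher; over all measured genes 18.2% were lower and 12.0% higher in that line. The median log2 ratio of the group in the SLC30A8 line was -1.44, against -0.05 for all genes.

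Among the mitochondrial members, ABCB6 (ENSG00000115657, a porphyrin transporter) was higher in the SLC30A8 line, with 60.9 CPM (54.8 to 67.5), against 25.4 in the A549-like, 16.2 in the DHRS2, 10.9 in the S100A9 and 9.70 in the HCC827-like line. That is 2.40-fold above the next line (1.94 to 2.97). ABCB8 (a subunit linked to mitochondrial potassium and iron transport) and ABCB10 (needed for haem synthesis; 25.7 CPM in the HCC827-like to 46.8 in the A549-like line) passed 2-fold in no line. ABCB8 had 46.8 CPM in the A549-like and 43.9 in the DHRS2 line, against 24.6, 18.0 and 16.3 in the SLC30A8, S100A9 and HCC827-like lines.

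Among peroxisomal and lysosomal members, ABCD3 (which brings branched-chain and dicarboxylic fatty acids into peroxisomes) had 242 CPM (229 to 254) in the SLC30A8 line, against 151 in the HCC827-like, 143 in the A549-like, 74.0 in the DHRS2 and 65.1 in the S100A9 line. It was 1.60-fold above the next line (1.48 to 1.74). ABCD4 (lysosomal vitamin B12 release) ranged from 27.9 CPM in the HCC827-like to 46.6 in the S100A9 line and ABCB9 (a lysosomal peptide transporter) from 13.3 in the S100A9 to 25.1 in the DHRS2 line. ABCD2 had 3 UMIs in all.

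The channel regulators ABCC8 and ABCC9 are the sulfonylurea receptors of ATP-sensitive potassium channels. ABCC9 (ENSG00000069431) had 81.6 CPM (74.9 to 88.8) in the HCC827-like line, against 27.1 in the A549-like, 10.9 in the DHRS2, 4.55 in the S100A9 and 1.69 in the SLC30A8 line. It was 3.01-fold above the next line (2.48 to 3.68), and thinned barcodes with an ABCC9 UMI were 18.8% in the HCC827-like line, against 7.68%, 3.64%, 1.58% and 0.698% in the A549-like, DHRS2, S100A9 and SLC30A8 lines. ABCC8 had 6.57 CPM in the A549-like and 3.36 in the S100A9 line with overlapping intervals, against 0.977 in the DHRS2 and 0.298 in the HCC827-like line. It had 0 UMIs in the SLC30A8 line, where a count of 0 allows up to 0.506 CPM.

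The soluble translation factors ABCE1 (ribosome recycling), ABCF1, ABCF2 and ABCF3 were all measured and passed 2-fold in no line. ABCE1 ranged from 48.1 CPM in the A549-like to 73.9 in the S100A9 line, ABCF1 from 26.5 in the A549-like to 60.1 in the SLC30A8 line, ABCF2 from 11.2 in the A549-like to 18.8 in the DHRS2 line, and ABCF3 from 4.45 in the A549-like to 11.8 in the S100A9 line. All 4 were lowest in the A549-like line, with a median log2 ratio there of -0.65. At the other end, the bile salt, phospholipid and sterol transporters listed for the liver canaliculus, a list that leaves out ABCC2 and ABCG2, were scarce: ABCB11 (bile salts) was at most 0.848 CPM, and ABCB4, ABCG5 and ABCG8 had 17, 15 and 17 UMIs in all, so differences between lines were not detectable at this depth. ABCB5 had 11 UMIs.

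Levels were also read within barcodes of low and high mitochondrial share. At or above 5% lay 94.0%, 91.7% and 92.1% of the UMIs of the S100A9, HCC827-like and DHRS2 lines. A match to the pooled levels of these lines is largely built in there. That stratum held 73 A549-like barcodes with 25.9% of the UMIs of that line, so its match below 5% is largely built in as well. The S100A9 line had 83 barcodes below 5%. Of the 18 higher calls, 17 passed 2-fold both below and above 5% mitochondrial UMIs, and all 18 kept their sign. The exception was ABCC8 in the A549-like line, with a log2 ratio of 0.97 at or above 5%. Of the 39 lower calls, 34 passed in both strata and all kept their sign. Called anew within the strata, 20 calls were higher and 51 lower below 5%, against 18 and 37 at or above 5%. ABCC2 in the A549-like line was at 883 CPM below 5% and 734 CPM above, against at most 121 and 115 CPM in any other line. ABCA1 in the DHRS2 line was at 345 and 226 CPM, against at most 146 and 118 CPM in the S100A9 line.

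**Figure D3:**
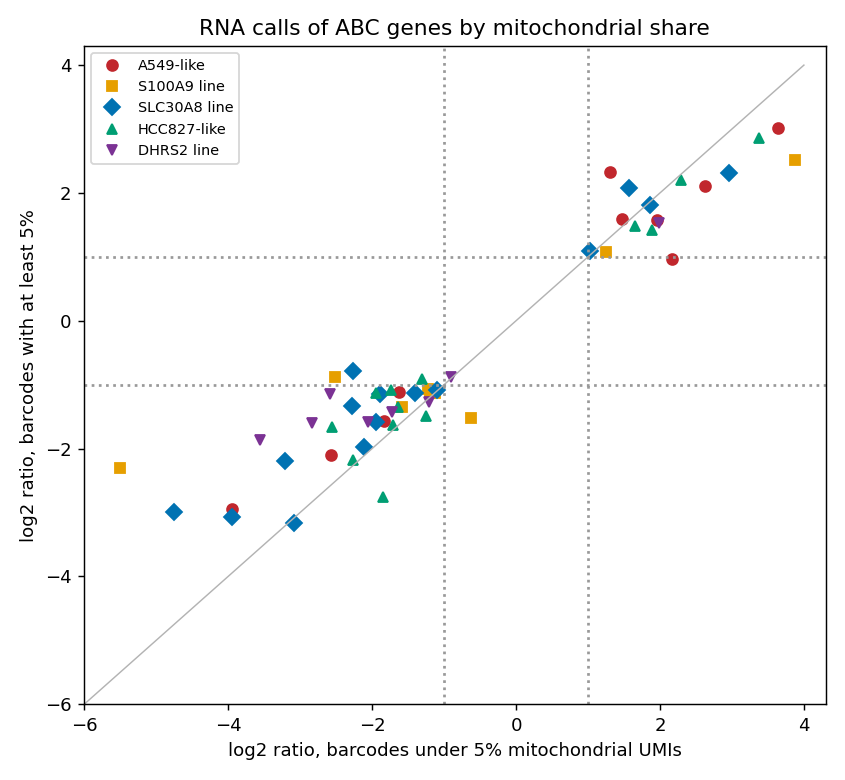
Log2 ratio of the higher and lower calls of the ABC genes reported by name, in barcodes under 5% mitochondrial UMIs (horizontal axis) and in barcodes with at least 5% (vertical axis); marker shape and colour give the line, dotted lines mark 2-fold and the diagonal marks equal ratios. All points lie in the lower left or upper right quadrant.

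Family members under other names and a list of regulators were read beside them. TAP1 (a subunit of the peptide pump of antigen presentation) had 48.5 CPM in the S100A9 line, against 36.3 in the DHRS2, 16.0 in the HCC827-like, 7.42 in the A549-like and 6.24 in the SLC30A8 line. CFTR, the chloride channel of cystic fibrosis, had 19.5 CPM in the S100A9 line, against 7.70 in the DHRS2, 3.60 in the A549-like, 2.39 in the HCC827-like and 0.506 in the SLC30A8 line. Of 18 genes listed as regulators, a list that also holds the NRF2 targets NQO1, GCLM and TXNRD1, 16 were measured. In the A549-like line 3 were higher and 1 lower. In the S100A9, SLC30A8, HCC827-like and DHRS2 lines 2, 2, 0 and 0 were higher, with 6, 3, 7 and 4 lower. Over all measured genes 11.8% were higher and 15.8% lower in the A549-like line, and in the other lines, in that order, 7.29%, 12.0%, 6.37% and 3.49% were higher and 13.6%, 18.2%, 15.8% and 7.74% lower. Among those higher in the A549-like line were the liver factor HNF4A, with 54.7 CPM there against at most 2.47 elsewhere, and the bile acid receptor NR1H4, with 12.7 against at most 1.69. The NRF2 targets NQO1, GCLM and TXNRD1 were lower in the HCC827-like line, with 83.4, 31.3 and 346 CPM, against 187 to 432, 75.7 to 285 and 456 to 1178 CPM in the other lines. GCLM was also lower in the DHRS2 line (log2 ratio -1.10) and was higher in the SLC30A8 line (1.34). The drug-sensing receptors NR1I2 and NR1I3 were under 20 UMIs. Whether any regulator acts on a member was not tested.

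The peaks at the members were counted next, in CPM of the summed peak counts of a line; deposited counts were mostly even, so intervals rest on counts divided by 2. Of the 101 peaks 85 had at least 100 counts, and 40 of the 45 members had a peak; ABCG5, ABCG8, ABCB11, ABCC12 and ABCA8 had none. The background is given as the share of all measured peaks and, after it, the share of those within 2000 bases of any gene row. Peaks higher by 2-fold numbered 7 of 85 in the A549-like line (7.01% and 7.26%), 9 in the S100A9 line (10.9% and 9.16%), 5 in the SLC30A8 line (7.88% and 7.42%), 5 in the HCC827-like line (9.24% and 7.97%) and 2 in the DHRS2 line (8.36% and 5.93%). Lower peaks numbered 6 of 85 in the A549-like line (27.2% and 21.8%), 4 in the S100A9 line (10.3% and 9.20%), 13 in the SLC30A8 line (22.7% and 19.8%), 16 in the HCC827-like line (13.4% and 12.4%) and 5 in the DHRS2 line (3.69% and 3.88%). As shares of 85, lower peaks were below both backgrounds in the A549-like (7.06%), S100A9 (4.71%) and SLC30A8 (15.3%) lines and above both in the HCC827-like (18.8%) and DHRS2 (5.88%) lines. The DHRS2 share rests on 5 peaks, and no difference from the background was tested. With the median of the other lines in place of the mean, 40 peak calls were higher and 26 lower (60.6% higher), against 28 and 44 (38.9% higher). The highest line stood at least 2-fold above the second in 13 peaks, against 15.5% of all peaks and 13.4% of peaks within 2000 bases of any gene.

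The peaks that marked the A549-like line most were at ABCC2, ABCA7 and ABCC3. The peak over the start of ABCC2 (chr10:99782166-99783023), which holds the CpG-poor promoter printed above, had 16.3 CPM (14.0 to 18.9) in the A549-like line, against 4.31 in the SLC30A8, 3.38 in the S100A9, 2.36 in the DHRS2 and 1.91 in the HCC827-like line. A second peak, 1021 bases from the listed start, differed less, with 4.74 CPM in the A549-like line against 2.31 to 3.69 in the others. The ABCC3 start peak (chr17:50634331-50635240) had 42.2 CPM in the A549-like line, against 15.7, 14.2, 14.0 and 12.5 in the SLC30A8, DHRS2, S100A9 and HCC827-like lines. Within ABCA7, 1 of 4 peaks (chr19:1042002-1042790) had 35.0 CPM in the A549-like line, against 10.3 in the SLC30A8, 3.06 in the DHRS2, 1.36 in the S100A9 and 1.12 in the HCC827-like line, although ABCA7 RNA was 20.3 CPM in the A549-like and 18.6 in the DHRS2 line with overlapping intervals.

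In the other lines the most marked peaks were small, apart from ABCD3. The ABCD3 start peak (chr1:94417809-94418711), over the CpG-rich promoter above, had 156 CPM (147 to 166) in the SLC30A8 line, against 75.7, 62.8, 54.5 and 49.6 in the HCC827-like, A549-like, S100A9 and DHRS2 lines. In the same line a peak upstream of ABCC10 (chr6:43424950-43425790) had 9.25 CPM, against at most 1.69, and a peak within ABCA4 (chr1:94111089-94111996) 7.26, against at most 1.22. The S100A9 line led at a pair of ABCA12 peaks, chr2:215136541-215137460 with 14.2 CPM against at most 6.30 and chr2:215105398-215106294 with 4.90 against at most 1.92, and at an ABCC6 peak (chr16:16200242-16201094) with 4.98 against at most 1.76. The HCC827-like line led at an ABCG2 peak (chr4:88195448-88196386) with 11.0 CPM against at most 3.16, an ABCC4 peak 1490 bases from the start (chr13:95298910-95299828) with 13.4 against at most 4.82, and an ABCA4 peak (chr1:94121969-94122880) with 6.97 against at most 2.93. The DHRS2 line led at peaks of ABCB8 (chr7:151025639-151026555; 7.21 CPM against at most 4.05), ABCG2 (chr4:88162386-88163293; 2.25 against at most 1.13) and ABCA4 (chr1:94106453-94107215; 3.82 against at most 2.59). At all 3 the interval of the DHRS2 line overlaps that of the next line, and at the ABCG2 and ABCA4 peaks the log2 ratio, 0.977 and 0.995, is short of 2-fold.

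Copy number differs between tumour lines, so the other peaks within 500000 bases on either side of each member were summed as well. Relative to the mean of the other lines, these regional sums ranged from 0.445-fold to 2.54-fold over the 45 members and 5 lines. In the SLC30A8 line the region of ABCD3 was at 1.89-fold and that of ABCA4 at 2.06-fold. The ABCD3 start peak itself had 156 CPM there, against a mean of 60.7 CPM in the other lines, a log2 ratio of 1.35. ABCC3 stood in a region at 1.67-fold and ABCC2 at 1.46-fold in the A549-like line, ABCB1 at 1.66-fold in the HCC827-like line, and ABCC1 at 1.42-fold in the S100A9 line. The highest regional value, 2.54-fold, was around ABCC9 in the SLC30A8 line, the line with the lowest ABCC9 RNA. ABCB6 and ABCA10, higher in RNA in the SLC30A8 line, lay in regions at 0.914-fold and 0.879-fold there. Regional accessibility cannot be told apart from copy number with these files, and its part in the RNA levels was not tested.

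RNA and peaks at the same gene were set side by side for the 33 measured members with at least 100 counts in their summed peaks. The same line was highest in both for 17 of the 33 (51.5%), against 49.8% of 18221 genes treated in the same way. Of 17 higher RNA calls, 6 had summed peaks past 2-fold in the same line (35.3%), against 30.5% of such calls over all genes. Those 6 were ABCC2, ABCC3 and ABCC8 in the A549-like line, ABCD3 in the SLC30A8 line, ABCA13 in the S100A9 line and ABCB1 in the HCC827-like line. ABCC2 had a log2 ratio of 3.23 in RNA and 1.64 in peaks, and ABCA13 had 2.66 and 1.31. The ABCA13 peak held 133 counts over all lines, near the minimum of 100, against 979 for the peaks of ABCC2. Of 36 lower RNA calls, 5 had peaks past 2-fold the same way (13.9%), against 33.3% over all genes.

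For the other 11 higher calls the log2 ratio of the summed peaks lay between -0.06 (ABCA1 in the DHRS2 line) and 0.25 (ABCB6 in the SLC30A8 line). ABCC4 had 34.2 CPM of peaks in the A549-like line, against a mean of 34.0 in the others, while its RNA was 414 against a mean of 134 CPM. For ABCG2, the sum over 7 peaks was 34.9 CPM in the A549-like line against a mean of 33.1 in the others, and its RNA was 95.4 against a mean of 17.9 CPM. These sums join peaks led by different lines: the ABCG2 start peak alone (chr4:88158563-88159405) had 17.1 CPM in the A549-like line, against 14.9 in the S100A9, 12.1 in the DHRS2, 8.38 in the SLC30A8 and 7.20 in the HCC827-like line. Its A549-like and S100A9 intervals overlap, and its log2 ratio in the A549-like line was 0.64. ABCC9, the remaining higher call, had 1 peak with too few counts to enter. The count of members with the same line highest in both depends on the processing: it was 10 with RNA clusters and 9 with TMM scaling, against 17.

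**Figure D4:**
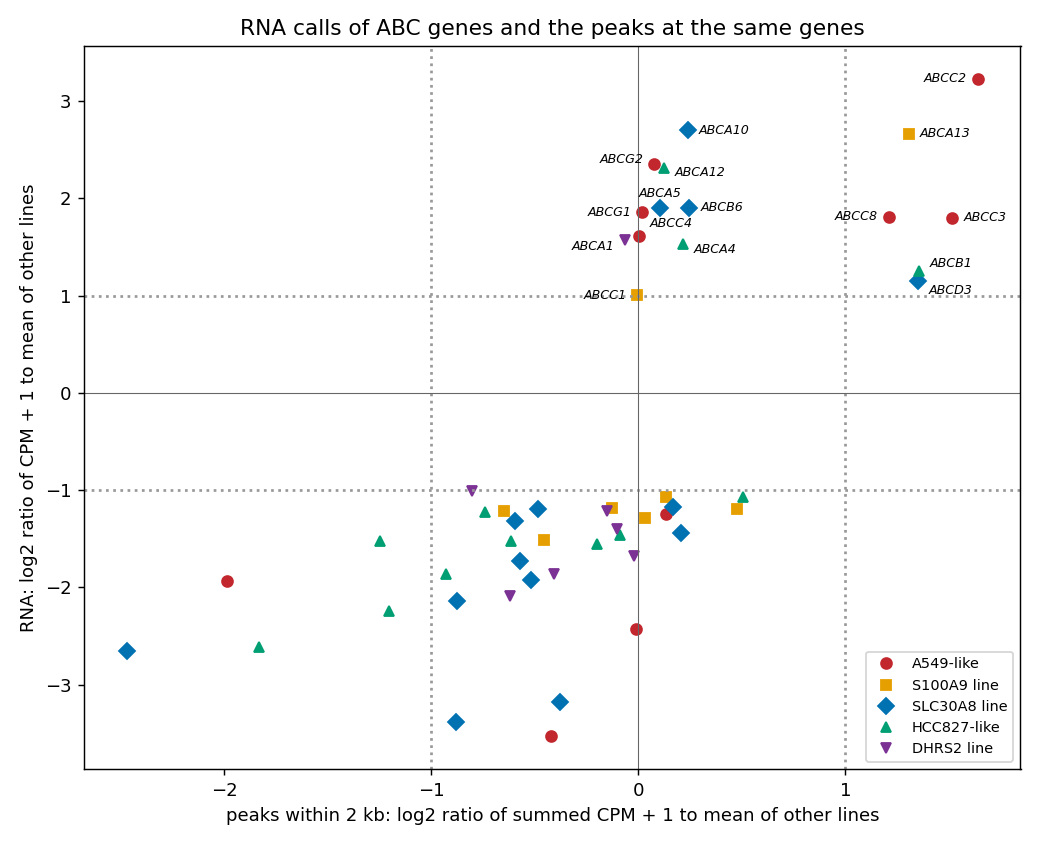
The higher and lower RNA calls of the ABC genes reported by name (vertical axis, log2 ratio of RNA CPM + 1 to the mean of the other lines) against the same ratio for its summed peaks within 2000 bases (horizontal axis); marker shape and colour give the line, dotted lines mark 2-fold, and higher calls are named. ABCC2, ABCA13, ABCC3, ABCC8, ABCB1 and ABCD3 lie to the right of the 2-fold line, while ABCC4, ABCA1 and ABCC1 stand close to the vertical line at 0.

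Member promoters were split by their number of CpG. RefSeq promoters were at hand for 35 members, 53 promoters in all, and 10 members had none. Of 34 member promoters with at least 10 CpG, 33 lay under a peak (97.1%), against 83.3% of such promoters over all genes. Of 19 with fewer, 7 lay under a peak (36.8%), against 25.5% over all genes. Where the peak was measured, its highest line exceeded its lowest by a median of 1.67-fold over 24 CpG-rich and 2.38-fold over 6 CpG-poor member promoters, against 2.01-fold and 3.24-fold over all genes. A range of 2-fold or more was found in 4 of the 24 CpG-rich ones (16.7%; all genes 50.3%) and in 4 of the 6 CpG-poor ones (66.7%; all genes 81.5%). Both member medians lie below those of all genes, and the CpG-poor one rests on 6 peaks. They come from ABCC2, ABCA13, ABCC11 and ABCD2, where ABCC11 and ABCD2 entered more than once. An ABCD2 peak over a promoter without CpG lies outside the peaks taken at the members. The 6 peaks are also weak, with 1.69 to 16.3 CPM in their highest line, against 2.84 to 156 CPM for the CpG-rich ones. A ratio of highest to lowest widens with counting error at low counts. The part of this in the wider range was not tested.

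Among the printed promoters, the peak over the 1 CpG of ABCC2 ranged 5.94-fold over lines and that over the 3 CpG of ABCA13 3.20-fold. The peaks over the 23 CpG of ABCB6 and the 47 CpG of ABCC4 ranged 1.91-fold and 1.53-fold, although the RNA of these 2 genes set 1 line apart. ABCD3, with 42 CpG and 3.11-fold, was the widest of the CpG-rich ones, in the line where its whole region stood at 1.89-fold.

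**Figure D5:**
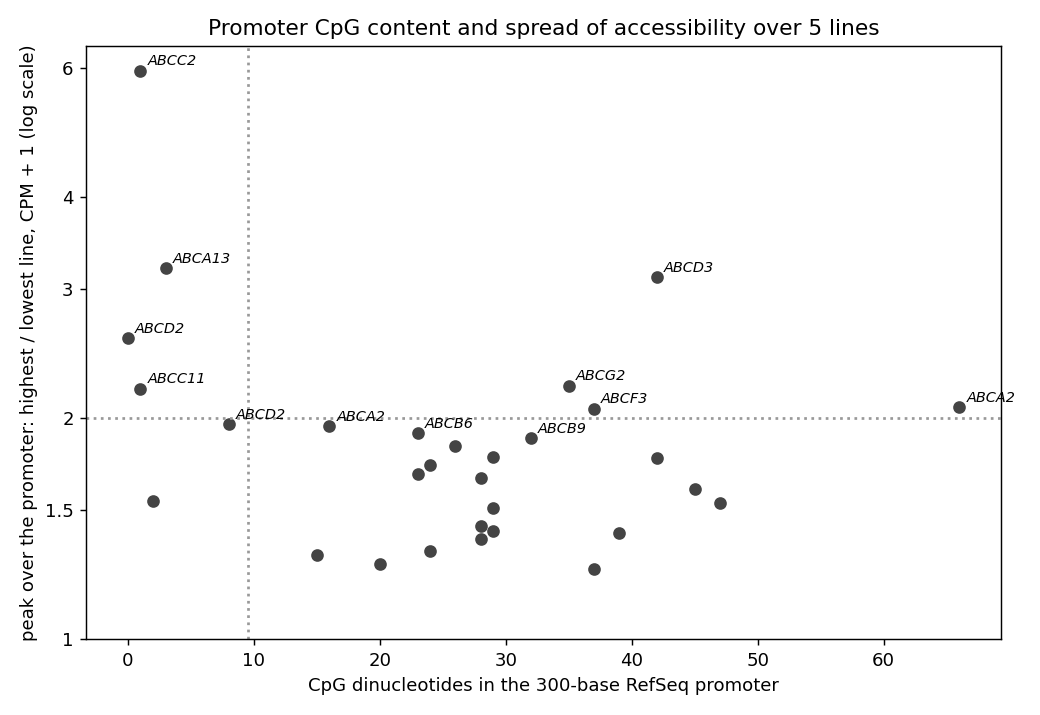
Promoter peaks of ABC genes by the number of CpG in the 300-base RefSeq promoter (horizontal axis) and by the ratio of highest to lowest line, as CPM + 1 on a log axis (vertical); each point is a measured peak over a promoter, the vertical dotted line splits fewer than 10 CpG from 10 or more, and the horizontal one marks 2-fold. ABCC2, at 1 CpG, is highest with 5.94-fold, and most CpG-rich promoters lie below 2-fold.

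Short motifs were searched on both strands of all 35116 RefSeq promoters. TGACNNNGC, the core of the antioxidant response element, was in 12 of 53 member promoters (22.6%) and in 13.3% of all. In the printed sequences it stands in ABCB6 at bases 99 to 107 (plus strand) and in ABCC4 at bases 102 to 110 (minus strand), counted from 1 at the 5′ end. TATAAA was in 15.1% of member promoters and 11.5% of all, and stands in ABCC2 at bases 15 to 20. GGGCGG, the GC box, was in 47.2% and 45.0%, and CCAAT in 22.6% and 34.6%. The element DR4 bound by liver X receptors, a pair of AGGTCA copies on the same strand with 4 bases between them, was in 0 member promoters and 0.0199% of all, so an exact match was rare everywhere. A match shows that these letters are present and no more.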

How the data were processed

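RNA and accessible DNA were measured in 3298 shared barcodes of 1 capture. Per the submitters' processing notes, the authors made the files with Cell Ranger ARC (version 2.0.0) and the genome build GRCh38. The deposited matrix holds raw counts, UMIs for each gene (62477861) and counts for each peak (131221183); 83.3% of the peak entries are even. Coordinates of starts and peaks are used as the authors deposited them, written 1-based. How peaks were called, which annotation was used and whether counting used strand is not given in the sources used here, so reads of a gene and its antisense partner (ABCC5-AS1 and ABCA9-AS1 are listed) cannot be told apart.

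Barcodes with at least 1000 UMIs, 500 genes, 1000 peak counts and at most 20% mitochondrial UMIs were kept (2804). Scrublet's own threshold marked 1 doublet, so the 63 highest scores, the expected rate, were removed, which left 2741. Latent semantic indexing of peaks (without the peaks at ABC genes and without the first component, whose correlation with depth was 0.99) and Leiden clustering at resolution 0.2 (scanpy 1.11.5) gave 5 clusters, tied to lines by marker genes. RNA clusters made without ABC genes named 2510 barcodes the same way; 176 of the DHRS2 line fell with the S100A9 line. Counts were summed per line and scaled to CPM, with exact Poisson and exact binomial (Clopper-Pearson) intervals and a pseudocount of 1 CPM. The line ratio was checked on simulated data. TMM used edgeR 4.0.16. A few genes are not reported here by name, and counts over the family or a list include them. Those given in full were, for each line, up to 5 members at least 2-fold above the next line and the 3 peaks that stood out most, with role lists by range and the other called members added. The members and lists were chosen with earlier results of these data known. Alternatives are in the closing section.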

Additional observations from a re-analysis of the deposited data

How the results depend on the processing

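No paired analysis was possible because there is 1 library of each kind and no replicate. Over 12 alternatives, 14 of the 18 higher calls and 18 of the 39 lower calls stayed past 2-fold in every one, and the sign changed in 1, ABCC2 in the SLC30A8 line, 0.44 against the median of the other lines. Members higher in the S100A9 line, 2 as reported, were 1 with RNA clusters, 1 with a pseudocount of 5 CPM, 1 with doublets kept and 6 against the median of the other lines. Members higher in the DHRS2 line, 2 as reported, were 4 in barcodes named alike by both routes, 4 against the median, 4 under 5% mitochondrial UMIs and 1 with a pseudocount of 5 CPM. Peaks higher in the DHRS2 line, 2 as reported, were 4 by marker UMIs alone, 5 with RNA clusters, 4 in barcodes named alike, 7 against the median, 0 with TMM and 0 when a peak had to overlap the span of starts. Higher peaks were 11 with TMM in the A549-like line (7 as reported), 5 with binarised counts in the S100A9 line (9), 8 with no count minimum and 1 with binarised counts in the SLC30A8 line (5), and 8 against the median and 3 with overlap in the HCC827-like line (5). Lower peaks over all lines, 44 as reported, were 26 against the median and 29 with binarised counts. The same line was highest in RNA and peaks for 10 members with RNA clusters and 9 with TMM, against 17. Apart from changes that follow from an alternative's own construction, the cause was not tested. TMM shifted the median of all genes by up to 0.156 and of all peaks by up to 0.206 on the log2 scale. Members under 20 UMIs limit what can be said of bile, ABCD2 and ABCG4 transporters at this depth.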
